A study of Mus musculus with 14 samples.

Results

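The genes described here are the mitochondrial carriers, the protein import machinery and the outer membrane channels of retinal ganglion cells (RGCs). They were taken by name: every gene whose symbol began with Slc25a, Tomm, Timm or Vdac followed by a number, and which had at least 1 microarray probe set annotated to it alone. The rule gave 70 of the 18193 genes measured, made up of 44 carriers, 23 import genes and 3 channels, with 149 probe sets between them. A further 4 probe sets named a gene of these families together with another gene and were left out, among them all those for Tomm5 and Tomm6. The signals were measured in 14 single RGCs, which formed 1 group with no control group. Each cell came from an adult mouse of mixed background that carried both a Cre recombinase gene under control of the parvalbumin locus (Parvalbumin-cre, 129P2/OlaHsd) and the Cre-dependent tdTomato reporter Ai9 (C57BL/6 and 129 SV). These backgrounds are those of the labels, whereas the study's methods place Ai9 on congenic C57BL/6J and the Cre line on a mixture of C57BL/6 and 129P2OlaHsd. The reporter stays on in any cell in which Cre has ever been active, so red fluorescence does not require parvalbumin expression at the time of collection, and it is not restricted to 1 RGC type. No cell is tied to a named animal, so the 14 cells cannot be assigned to mice, and no groups could be tested; every SD given is a spread between cells, which can be biological or technical.

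Nearly all mitochondrial proteins are made in the cytosol and enter through the translocase of the outer membrane (TOM), after which the TIM23 complex takes precursors with a presequence into the matrix and the TIM22 complex, fed by small TIM chaperones of the intermembrane space, inserts carrier proteins into the inner membrane. The carriers themselves, the SLC25 family, move nucleotides, phosphate, cofactors, amino acids and keto acids across the inner membrane, and the voltage-dependent anion channels (VDACs) are the main route for metabolites across the outer membrane. RGCs fire action potentials and send long axons, unmyelinated within the eye, that are rich in mitochondria.

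A gene was called detected in a cell when its signal reached 8 times the median signal of that array. By this measure the cells held 2540 to 6849 detected genes, fewest in cells 5 and 13. The RGC label was borne out by markers: 9 to 13 of 13 RGC markers measured were detected in each cell, and 8 of them in every cell. Rod markers stood apart in cells 3 and 6, with 8 and 7 of 8 detected against 1 or 2 in each other cell, so counts are also given without these cells. Müller glia markers numbered 0 to 5 of 8 per cell, with Clu in 12 cells, Glul, a gene the libraries were screened against by PCR, in 8, Dkk3 in 7, Rlbp1 in 4, Slc1a3 and Vim in 1 each, and Apoe and Aqp4 in none. Amacrine markers numbered 0 to 2 of 8, with Slc6a9 in 6 cells, Slc32a1 in 3, Gad2 in 1, and Gad1, Chat, Th, Tfap2a and Tfap2b in none. The part of other cells' RNA in the results below was not tested. Array medians ran from 8.02 in cell 14 to 55.0 in cell 1, so the threshold ran from 64.2 to 439.7. The 3′ to 5′ signal ratio of Gapdh was 1.09 to 1.95 in 13 cells and 2.61 in cell 14. The highest correlation between any pair of cells was r = 0.682 over log2 signals, so no cell was present in duplicate.

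The 70 genes fell into a small set found in every cell, a larger set found in most, and a tail found in few or none. Of the 70, 6 (8.57%) were detected in all 14 cells, against 2.64% of all genes, and 32 (45.7%) in at least 7 cells, against 24.8% of all genes. Another 24 were detected in 1 to 6 cells and 14 (20%) in none, against 41.8% of all genes. The median was 5.5 cells per gene, against 1 over all genes. The share reaching 7 cells was lower than for other mitochondrial genes. Of 92 oxidative phosphorylation subunits 83.7% reached 7 cells, and of 76 mitochondrial ribosomal protein genes 71.1%, with medians of 13 and 8 cells. The share found in every cell was 25% for the first of these lists and 0% for the second, so there the 70 genes lay between them. The families differed among themselves. Import genes (Tomm and Timm) had a median of 8 cells, and 15 of 23 (65.2%) reached 7 cells. Carriers had a median of 1.5 cells, and 14 of 44 (31.8%) reached 7 cells, nearer the 24.8% of all genes. None of these differences was tested, since the genes of a list share the same 14 cells. Leaving out cells 3 and 6 left 29 of 70 genes in at least 7 of the remaining cells, and leaving out cells 5 and 13 left 32 but raised the number found in every cell to 10, adding Vdac2, Tomm70a, Timm23 and Timm13.

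**Figure D1:**
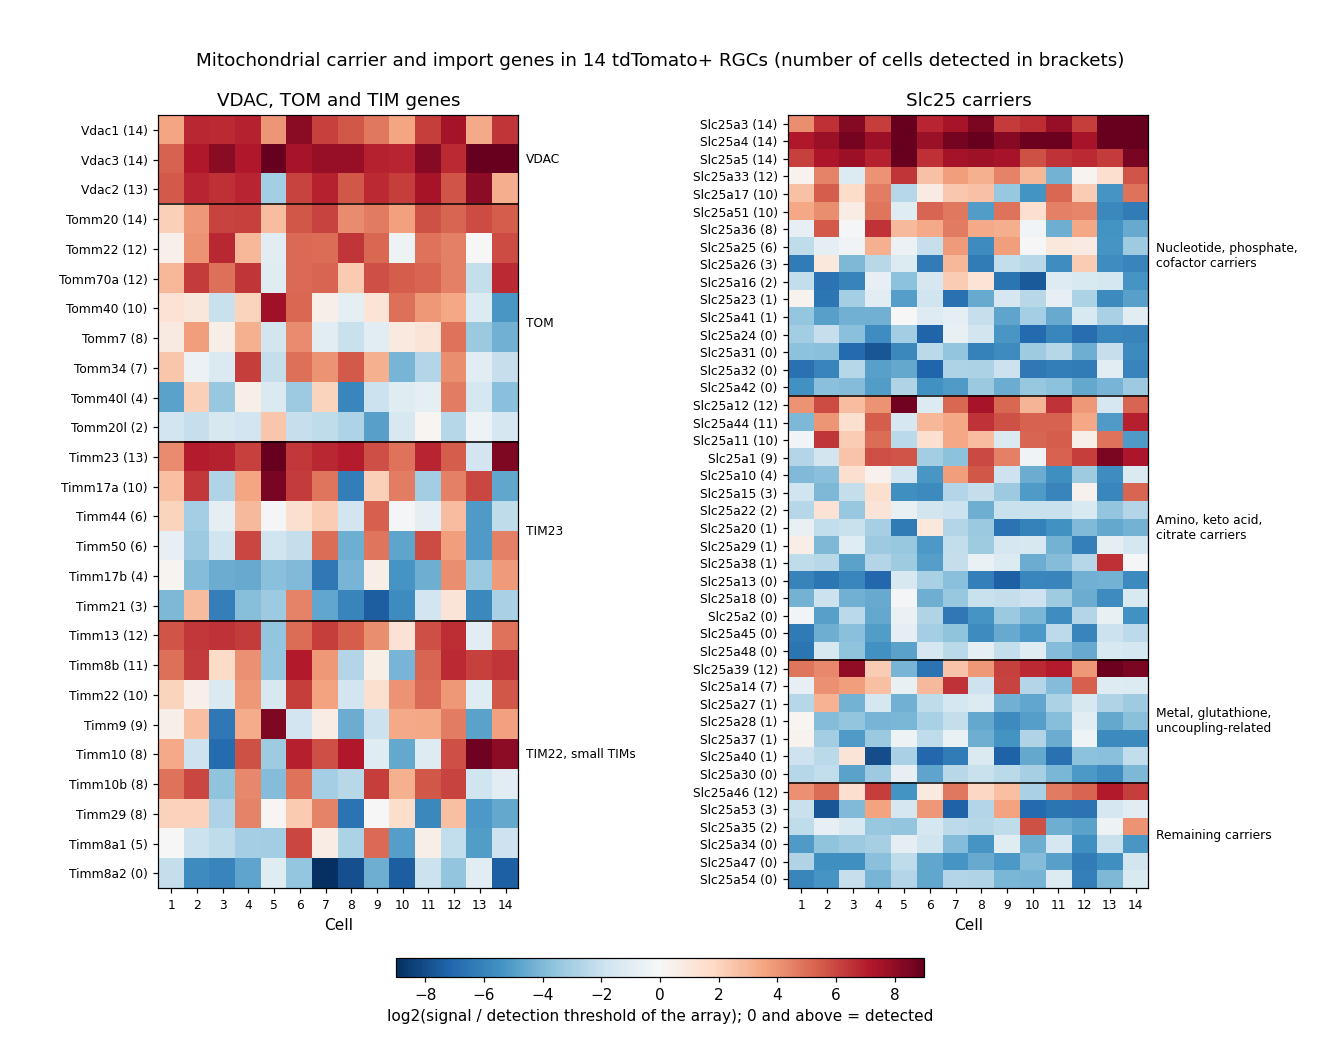
Signal of each of the 70 genes (rows, grouped by role) in each of 14 cells (columns), as log2 of the signal over the detection threshold of that array, so that red is detected and blue is not. The 3 VDAC genes and Slc25a3, Slc25a4 and Slc25a5 are red almost throughout, and 14 genes have no red cell.

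Most detected signals lay far from the threshold. Of the 980 values (70 genes in 14 cells) 412 were detected, and 310 of these (75.2%) were at least 8 times the threshold, while 91 values (9.29%) lay within 2-fold of it on either side. MAS5, the program that made the signals, scales each array to a common trimmed mean, so a signal is a level relative to the other transcripts of that cell. Signals of different genes come from different probes and were not compared with each other.

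All 3 VDAC genes were broadly detected. Vdac3 ran from 12574 through a median of 27472 to 61366, with mean log2 signal 14.69 ± 0.71 (SD, n = 14 cells). It was among the steadiest transcripts of these cells: 54 of the 480 genes found in every cell had a smaller SD, and the median over the 480 was 1.15. Vdac1, the most studied VDAC and a docking site for hexokinase, ran from 1048 through 7304 to 31446 (12.69 ± 1.41, n = 14), a 30-fold range. Its lowest values were in cells 5 and 13 (1048 and 1151) and its highest in cells 6 and 12 (31446 and 23152), the reverse of Vdac3, which was highest in cells 13 and 5. These Vdac1 values are from a probe set of a type that can bind related transcripts. The 1 Vdac1 probe set of another type was detected in 10 cells (1, 2, 3, 4, 6, 7, 8, 9, 10 and 12). Vdac2, known for holding the apoptosis effector BAK in check, was detected in 13 cells at 615 to 28468. In cell 5 its signal was 7.93, far under threshold, although that cell gave high Vdac3.

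Among the carriers, the 3 found in every cell were those that supply ATP synthase and export its product. Slc25a4 (ANT1), the ADP/ATP exchanger of excitable tissue, ran from 17317 through 49558 to 134566 (mean log2 15.51 ± 0.83, SD, n = 14 cells). It was highest in cells 10 and 13 and lowest in cell 4. Slc25a5 (ANT2), the ADP/ATP exchanger known from dividing tissues, ran from 8618 through 20210 to 35515 (14.14 ± 0.67), and all 8 of its probe sets were detected in every cell. Slc25a31 (ANT4), the isoform known from testis, was detected in no cell and its 1 probe set stayed at or below 33.7. Thus both somatic ADP/ATP exchangers were found together in each of 14 RGCs and the germ cell form in none. Slc25a3, which brings phosphate into the matrix and can also carry copper, ran from 6365 through 24076 to 74628 (14.38 ± 1.10), highest in cell 13 and lowest in cell 4.

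Of the 16 nucleotide, phosphate and cofactor carriers, 7 (43.8%) reached 7 cells, beside 24.8% of all genes. These 7 include Slc25a3, Slc25a4 and Slc25a5, so the share does not describe the other carriers of the group. Of those others, found in fewer cells, 4 reached 7 cells: Slc25a33, Slc25a36, Slc25a51 and Slc25a17. Slc25a33, a pyrimidine nucleotide carrier, was detected in 12 cells at 156.2 to 5645, and its relative Slc25a36 in 8 of those 12 at 504.4 to 7507. Slc25a51, the NAD carrier, was detected in 10 cells; over all 14 it ran from 0.827 through 2281 to 5017, with every undetected value at or below 30.8. Slc25a17, a carrier of coenzyme A, FAD and NAD that sits in peroxisomes, was also detected in 10 cells and ran from 2.72 through 650.5 to 5286, with undetected values at or below 16.02. Both genes are among the 10 chosen for a wide gap between detected and undetected signals, so the gap itself is no result. Their lowest detected values lay near the threshold. These were 191.5 for Slc25a51 in cell 3 (threshold 121.8) and 187.8 for Slc25a17 in cell 6 (threshold 112.55). Another probe set of Slc25a51 was detected in cell 8. Slc25a25, a calcium-regulated ATP-Mg/phosphate carrier, was detected in 6 cells (4, 7, 9, 10, 11 and 12). Its relative Slc25a23 was detected in cell 1 alone (549.6), Slc25a41 in cell 5 alone (66.4, where a value of 69.7 in another cell was under that array's threshold) and Slc25a24 in none. Slc25a26, which carries S-adenosylmethionine, was detected in cells 2, 7 and 12 at 233.7 to 986.4, and Slc25a16, assigned to coenzyme A transport, in cells 7 and 8 (614.9 and 275.2). Slc25a32 and Slc25a42, carriers of folate or FAD and of coenzyme A, were detected in none.

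Of the 15 carriers of amino acids, keto acids and citrate, 4 (26.7%) reached 7 cells, near the 24.8% of all genes, and these include both inner membrane carriers of the malate-aspartate shuttle. Slc25a12 (aralar), the aspartate/glutamate carrier of brain and muscle, was detected in 12 cells and ran from 38.9 through 3431 to 26410. Cells 6 and 13 were under threshold, at 47.3 and 38.9, though another probe set was detected in cell 6. Slc25a13 (citrin), the aspartate/glutamate carrier of liver, was detected in none, with all 14 values on its 1 probe set at or below 24.2. Slc25a11, the oxoglutarate/malate carrier that completes the shuttle, was detected in 10 cells at 183.4 to 10895. Cell 1, with the highest threshold, gave 365.8 for it and counted as undetected. Slc25a1, which exports citrate, was detected in 9 cells at 732.6 to 37994 and stayed at or below 232.6 in the other 5. Slc25a44, a branched-chain amino acid carrier, was detected in 11 cells at 334.3 to 11781.

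The remaining 11 of this group were rare. Slc25a10, the dicarboxylate carrier, was detected in cells 3, 4, 7 and 8, and Slc25a15, an ornithine carrier, in cells 4, 12 and 14 at 171.8 to 2369. Of the glutamate carriers, Slc25a22 was detected in cells 2 and 4 (289.0 and 190.3) and Slc25a18 in none. Slc25a20, which carries acylcarnitines for fatty acid oxidation, was detected in cell 6 alone at 215.9, a cell with 7 of 8 rod markers, while its 277.1 in cell 1 was under that array's threshold. Slc25a29, a basic amino acid carrier, was detected in cell 1 alone (664.3) on the probe set used, but other probe sets of the gene reached 4985 and 5472 in that cell, and another was detected in cell 5 as well. Slc25a38, a glycine carrier used in heme synthesis, was at 10369 in cell 13 and at or below 89.3 in the other 13 cells. Slc25a2, Slc25a45 and Slc25a48 were detected in none.

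In the metal, glutathione and uncoupling-related group, 2 of 7 (28.6%) reached 7 cells, near the 24.8% of all genes. Slc25a39, a glutathione importer, was detected in 12 cells at 400.1 to 48744, and its 2 undetected values were 3.60 in cell 5, where another probe set was detected, and 1.14 in cell 6. Its relative Slc25a40 was detected in cell 3 alone (278.7), the cell with 8 of 8 rod markers, where Slc25a39 was also found. Slc25a14, also called UCP5 and known from brain, was detected in 7 cells at 556.7 to 11446. Slc25a27, also called UCP4, was detected in cell 2 alone (1042), and Slc25a30 in none. The iron carriers Slc25a28 and Slc25a37 (mitoferrins) were detected in cell 1 alone, at 490.5 and 543.3. On the probe sets used, cell 1 was the sole cell for 4 genes, Slc25a23, Slc25a28, Slc25a29 and Slc25a37, at signals within 2-fold of its threshold of 439.7, and without it the number of genes in no cell rose from 14 to 18. It rose to 16 without cells 3 and 6, the sole cells for Slc25a40 and Slc25a20, and to 16 without cells 5 and 13, the sole cells for Slc25a41 and Slc25a38. Among the 6 remaining carriers, Slc25a46, an outer membrane protein that acts in mitochondrial fission and whose loss is known to cause optic atrophy, was detected in 12 cells at 202.1 to 15116. The others were Slc25a53 (cells 4, 6 and 9, at 1042 to 2061), Slc25a35 (15267 in cell 10 and 1055 in cell 14) and Slc25a34, Slc25a47 and Slc25a54, which were detected in none.

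In the TOM group, 6 of 8 genes (75%) reached 7 cells, beside 24.8% of all genes. Tomm20, a receptor for presequences, was the 1 import gene found in every cell, running from 449.1 through 4638 to 8653 (mean log2 11.83 ± 1.14, SD, n = 14 cells), with cell 5 alone below 1000. Tomm70a, the receptor that takes in carrier precursors, was detected in 12 cells and ran from 24.6 through 4165 to 12694. Cells 5 and 13, the 2 with the fewest detected genes, were the cells without it. Tomm22, the central receptor, was detected in 12 cells and ran from 33.6 through 3238 to 13539. Its 111.5 in cell 13 was just over that array's threshold of 108.3, while 209.1 in cell 10 was under a threshold of 292.4. At 4 times the array median Tomm22 was found in all 14 cells. Tomm40, the pore, was detected in 10 cells and ran from 1.69 through 368.4 to 12791, with cells 3, 8, 13 and 14 at or below 65.5. Its relative Tomm40l was detected in 4 cells (2, 4, 7 and 12), all of which also had Tomm40. Tomm7, a small subunit, was detected in 8 cells, and Tomm34, a cytosolic partner of import, in 7, at 1507 to 6330 there and at or below 84.3 elsewhere (median over all cells 795.7). Tomm20l was detected in cells 5 and 11 at 365.4 and 132.5.

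Of the 6 genes of the TIM23 complex, 2 (33.3%) were found in at least 7 cells on the probe sets and threshold used, near the 24.8% of all genes. That share depends on both choices. Counted on any probe set, Timm44 and Timm50 each reached 7 cells, where all genes stood at 26.8%. At 4 times the array median they reached 10 and 7, where all genes stood at 30.7%. With a fixed signal of 1000 they were in 2 and 6. Timm23, its channel-forming core, was detected in 13 cells and ran from 32.2 through 11611 to 41933, with cell 13 as the exception and every other cell at 5755 or more. Timm17a and Timm17b are alternative partners of Timm23. Timm17a was detected in 10 cells and ran from 1.54 through 2979 to 24269. Timm17b was detected in 4 cells and ran from 1.45 through 7.27 to 2333. Both were found in cells 1, 9 and 12, Timm17a alone in 7 cells, Timm17b alone in cell 14, and neither in cells 3, 8 and 11. The receptor Timm50 was detected in 6 cells and ran from 3.21 through 147.2 to 6841. Timm44, which tethers the import motor, was also detected in 6 cells, at 312.1 to 6989, and Timm21, which links TIM23 to the outer membrane, in cells 2, 6 and 12 at 287.7 to 2515. Cell 12 was the 1 cell with all 6 genes, and on the probe sets used cells 3, 8 and 13 had 1 each.

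Of the 9 genes of the TIM22 complex and small TIMs, 7 (77.8%) reached 7 cells, beside 24.8% of all genes. Timm22, the insertion channel for carriers, was detected in 10 cells at 165.6 to 8217, and Timm29, a subunit of the same complex, in 8 at 74.6 to 2754. The small TIMs work as hexamers of paired subunits. In the pair Timm8 and Timm13, Timm13 was detected in 12 cells (710.9 to 21900) and Timm8b in 11 (240.9 to 15531), with both in 10 cells and neither in cell 5. Timm8a1, the homologue of the gene lost in human deafness-dystonia syndrome, was detected in 5 cells (1, 6, 7, 9 and 11), each of which also had Timm8b, and it ran from 3.27 through 26.7 to 7124. Timm8a2 was detected in none. Timm9 and Timm10 form the pair that chaperones carriers. Timm9 was detected in 9 cells and ran from 1.41 through 715.8 to 21977, and Timm10 in 8 cells, running from 1.02 through 4557 to 45965. Both were found in 5 cells (1, 4, 7, 12 and 14), Timm9 alone in 4, Timm10 alone in 3, and neither in cells 3 and 9, though another probe set of Timm9 was detected in cell 9. Timm10b, which docks Timm9 and Timm10 to the TIM22 complex, was detected in 8 cells and ran from 4.37 through 2149 to 13102.

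**Figure D2:**
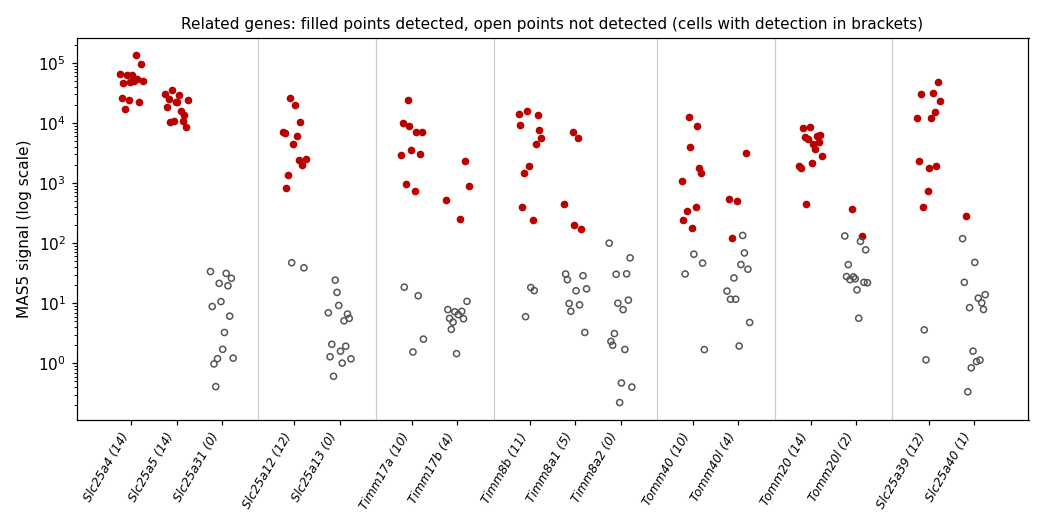
MAS5 signal (log axis) of related genes side by side, each point 1 of 14 cells, filled where detected and open where not. Slc25a4 and Slc25a5 are filled in all 14 cells and Slc25a31 in none, and Slc25a12 is filled in 12 cells and Slc25a13 in none.

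Genes of the same pathway outside the naming rule were also counted. Of 37 listed, 32 had a probe set of their own, and 23 of these (71.9%) reached 7 cells, beside 24.8% of all genes. Their median was 10 cells, beside 1 over all genes, and 6.25% were found in every cell, beside 2.64% of all genes. Mpc1, a subunit of the mitochondrial pyruvate carrier, was detected in every cell and ran from 1416 through 5170 to 14390. Mtch1, a carrier-like protein of the outer membrane, was also found in every cell and ran from 2982 through 11910 to 33906. Immt, the core of the cristae junction complex, was detected in 13 cells, and 12 cells each had Mtch2, the oxidative folding receptor Chchd4, the matrix chaperones Hspa9 and Hspe1, the motor subunit Pam16, the calcium uptake regulator Micu3 and hexokinase 1 (Hk1). The calcium uniporter pore Mcu was detected in 5 cells (2, 6, 7, 9 and 12), and Smdt1, its essential small subunit, in 11. Of the uncoupling proteins, Ucp1 was detected in none and Ucp3 in 1 cell.

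Cells differed widely in how many of the 70 genes they held, and this moved with how many genes of any kind were detected. Cells 5 and 13 held 17 each (24.3%) and cells 4 and 12 held 40 each (57.1%). The mean share per cell was 42% ± 10.8 (SD, n = 14 cells), beside 25.2% ± 7.21 of all genes, 77.2% ± 10.4 of oxidative phosphorylation subunits and 58.3% ± 21.4 of mitochondrial ribosomal protein genes. The share of the 70 genes was above the share of all genes in each cell, by a factor of 1.52 in cell 12 to 1.86 in cell 14 (mean 1.68 ± 0.116). Import genes per cell ranged from 5 of 23 in cell 13 to 20 in cell 12, and carriers from 8 of 44 in cell 5 to 19 in cell 4. The cause was not tested.

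**Figure D3:**
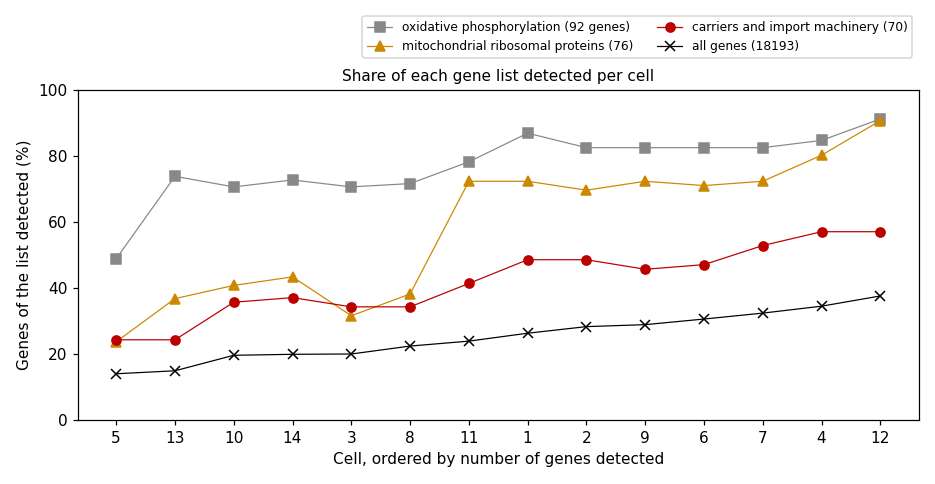
Share of each gene list detected (%) in each cell, with the 14 cells ordered by the number of genes detected. The 70 carrier, import and channel genes run from 24.3% in cells 5 and 13 to 57.1% in cells 4 and 12, above all genes and below oxidative phosphorylation subunits in every cell.

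The signals of the genes found in every cell also moved with the number of genes detected, in opposite directions. Over the 14 cells, each of which was amplified on its own, so that values within a cell share its amplification, Pearson's r of log2(signal + 32) with the number of genes detected was −0.888 for Vdac3, −0.855 for Slc25a3 and −0.766 for Slc25a4. These signals were high in the cells with few detected genes. It was 0.773 for Vdac1, which was low there on the probe set used. Tomm20 gave 0.401 and Slc25a5 −0.234. After quantile normalisation between arrays the values were −0.553, −0.755 and −0.449 for the first 3, 0.806 for Vdac1 and 0.252 for Tomm20, while Slc25a5 turned to 0.342. Leaving out cells 5 and 13 gave −0.812, −0.792, −0.751 and 0.574 for Vdac3, Slc25a3, Slc25a4 and Vdac1. The median over the 32 genes found in at least 7 cells was 0.376, beside 0.284 over all 4507 such genes. The cause was not tested.

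**Figure D4:**
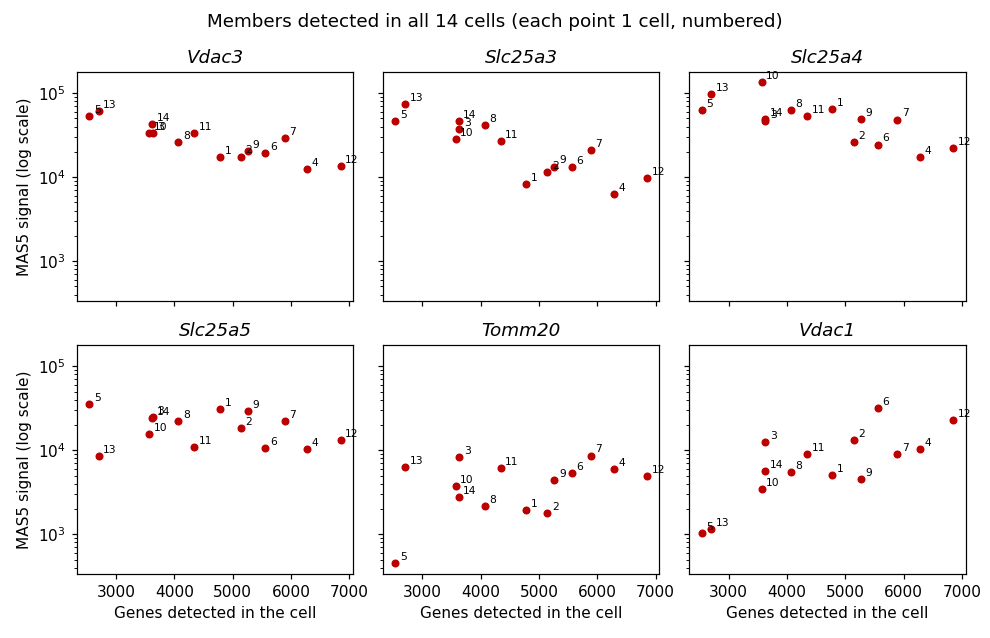
MAS5 signal (log axis) against the number of genes detected in the cell for the 6 genes found in all 14 cells, each point 1 cell. Vdac3, Slc25a3 and Slc25a4 slope down (r = −0.888, −0.855 and −0.766 on log2 signal), Vdac1 slopes up (0.773), and Slc25a5 shows little slope (−0.234).

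The genes did not move as a block from cell to cell. Over the 496 pairs of the 32 genes found in at least 7 cells, the median r between genes was 0.0778, beside 0.0793 for all genes, 0.145 for oxidative phosphorylation subunits and 0.215 for mitochondrial ribosomal proteins found as broadly. It was −0.0111 without cells 5 and 13 and 0.0154 by rank correlation. At r of 0.7 or more stood 13 pairs (2.62%, beside 1.77% for all genes), and 12 pairs were at −0.7 or less (2.42%, beside 0.519% for all genes). Each of these 12 pairs held Vdac3, Slc25a3 or Slc25a4, so they do not describe the 32 genes at large. Those genes had the most negative r with the number of genes detected (−0.888, −0.855 and −0.766). Whether the negative pairs stem from that was not tested. The highest was Slc25a3 with Vdac3 (r = 0.945, n = 14 cells), 0.669 after quantile normalisation and 0.780 once the number of genes detected was regressed out of both. The lowest was Slc25a3 with Slc25a51 (−0.852), −0.759 after quantile normalisation and −0.579 once the number of genes detected was regressed out.

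Several calls rest on which probe set was read. Each gene was read on 1 probe set, and 12 genes would gain cells from another, which makes 35 genes found in at least 7 cells in place of 32. They are Slc25a12, Slc25a25, Slc25a29, Slc25a39, Slc25a44, Slc25a51, Slc25a53, Timm8a1, Timm9, Timm29, Timm44 and Timm50, with 2 further cells for Slc25a25 and 1 for each other gene. Of the 70 genes, 37 had several probe sets and 16 of these had probe sets that differed by 5 cells or more. The widest differences were in Slc25a3 (14 cells against 0), Tomm70a (12 against 0), Slc25a12 (12 against 1), Slc25a39 (12 against 1) and Slc25a44 (11 against 0), and in Tomm20 a probe set with 3 cells stood against 1 with 14. The priming at the 3′ end of transcripts favours probe sets near it, but probe positions were not analysed here. For 10 genes, among them Slc25a4, Slc25a5 and Vdac1, the probe set used is of a type that can bind related transcripts. Slc25a4 and Slc25a5 were also detected in all 14 cells by probe sets of other types, whereas the 1 such probe set of Vdac1 was detected in 10 cells. Without that type 5 genes were found in every cell in place of 6. Of the 14 genes found in no cell, 9 had 1 probe set, and no other probe set of the remaining 5 was detected either, so absence of these transcripts is not shown.

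NRF1 and ETS-family factors such as GABP are known regulators of nuclear genes for mitochondria. The promoters of genes found in every cell are therefore set here beside that of Slc25a31, found in none. Vdac3, also found in every cell, had no promoter window and is not covered. The windows are from RefSeq (GRCm38.p6), from 250 bases before to 50 bases after the transcription start, and cover 55 of the 70 genes with 67 windows. The letters searched were the NRF1 core TGCGCA, which is its own reverse complement, and the ETS core CCGGAAG on both strands (reverse complement CTTCCGG). The ETS letters were in 41.9% of 31 windows of genes found in at least 7 cells, against 18.9% of the windows of all genes found as broadly and 8.86% of all 32851 promoters. The NRF1 letters were in 22.6%, against 16.3% and 7.76%. Over the windows of all genes measured the shares were higher than over all promoters, at 13% for the ETS letters and 11% for the NRF1 letters. Genes found in 1 to 6 cells had the ETS letters in 12.5% of 24 windows and the NRF1 letters in 0. Genes found in none had them in 16.7% and 8.33% of 12, against 6.23% and 6.74% for all genes found in no cell. These shares of 12 windows stand for 2 windows with the ETS letters and 1 with the NRF1 letters. The median number of CpG sites per window was 22 in broadly found genes and also 22 in all genes found as broadly. It was 16 over all genes measured and 7 over all promoters. The windows lie at chr10:91123918-91124217, minus strand (Slc25a3), chr8:46211013-46211312, minus strand (Slc25a4), chrX:36795347-36795646, plus strand (Slc25a5), chr3:40708621-40708920, plus strand (Slc25a31), chr8:126945872-126946171, minus strand (Tomm20) and chr11:52360601-52360900, plus strand (Vdac1, the first of 2). Each is printed 5′ to 3′ on the strand of its gene, with motif matches in capitals.
Slc25a3: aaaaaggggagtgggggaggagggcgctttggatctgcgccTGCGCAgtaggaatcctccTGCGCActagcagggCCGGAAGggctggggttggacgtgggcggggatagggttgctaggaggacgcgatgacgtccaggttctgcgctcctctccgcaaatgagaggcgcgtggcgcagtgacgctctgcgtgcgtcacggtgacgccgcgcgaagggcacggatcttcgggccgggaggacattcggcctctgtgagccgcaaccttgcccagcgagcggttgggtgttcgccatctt
Slc25a4: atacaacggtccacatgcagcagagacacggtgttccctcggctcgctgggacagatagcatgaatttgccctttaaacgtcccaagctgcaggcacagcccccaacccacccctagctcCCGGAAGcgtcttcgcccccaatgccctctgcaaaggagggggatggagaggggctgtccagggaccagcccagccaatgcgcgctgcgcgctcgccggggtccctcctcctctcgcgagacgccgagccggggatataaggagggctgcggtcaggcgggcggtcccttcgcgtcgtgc
Slc25a5: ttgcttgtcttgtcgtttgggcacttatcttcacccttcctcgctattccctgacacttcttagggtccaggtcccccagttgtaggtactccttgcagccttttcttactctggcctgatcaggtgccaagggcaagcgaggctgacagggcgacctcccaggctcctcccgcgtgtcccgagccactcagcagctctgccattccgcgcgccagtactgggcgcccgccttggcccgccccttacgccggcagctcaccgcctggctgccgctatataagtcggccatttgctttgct
Slc25a31: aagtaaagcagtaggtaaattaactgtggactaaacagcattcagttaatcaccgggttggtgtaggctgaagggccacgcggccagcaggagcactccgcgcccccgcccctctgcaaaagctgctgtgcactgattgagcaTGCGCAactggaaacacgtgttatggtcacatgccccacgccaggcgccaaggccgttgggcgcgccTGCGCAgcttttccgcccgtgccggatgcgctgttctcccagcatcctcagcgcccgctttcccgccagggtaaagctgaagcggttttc
Tomm20: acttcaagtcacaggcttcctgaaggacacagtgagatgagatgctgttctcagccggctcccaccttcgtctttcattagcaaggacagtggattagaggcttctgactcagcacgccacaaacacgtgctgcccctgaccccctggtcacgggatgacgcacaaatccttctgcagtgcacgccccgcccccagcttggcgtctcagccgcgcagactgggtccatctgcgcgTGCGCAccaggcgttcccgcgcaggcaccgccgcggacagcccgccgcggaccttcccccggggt
Vdac1: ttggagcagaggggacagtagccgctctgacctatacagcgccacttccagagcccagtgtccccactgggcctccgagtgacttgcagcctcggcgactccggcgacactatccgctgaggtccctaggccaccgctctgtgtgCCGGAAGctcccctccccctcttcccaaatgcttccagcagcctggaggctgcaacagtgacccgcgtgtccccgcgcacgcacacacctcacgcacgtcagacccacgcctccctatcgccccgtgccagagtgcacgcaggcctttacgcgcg

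The Slc25a3 window held the NRF1 letters at 2 places and the ETS letters at 1, all in its first 100 bases. Slc25a4 and Vdac1 each held the ETS letters once, and Tomm20 the NRF1 letters once. The second window of Vdac1 held neither. Slc25a5, found in every cell, held neither, and Slc25a31, found in none, held the NRF1 letters at 2 places, so the presence of these letters did not sort these genes by the cells in which they were found. A match is a description of the sequence and says nothing of whether a factor binds there.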

How the data were processed

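Single tdTomato+ cells were picked by glass pipette from papain-dissociated retina. RNA was reverse transcribed from oligo-dT, tailed, amplified for 35 PCR cycles and hybridised to Affymetrix mouse expression arrays, after PCR screening of the libraries for the RGC gene Sncg and against rod and Müller glia genes. The paper names DNA facilities at Iowa State and at the University of Iowa for its arrays, which include those of other cells. Whether the arrays described here were split between them is not stated. The deposited values are MAS5 signal intensities on a linear scale, which the authors scaled on each array; the 2% trimmed mean is 500 on every array. The sources used here give no MAS5 version. Arrays have no read depth, and their number limits the precision.

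Of 45101 probe sets, 64 controls were left out. Of the other 45037, 34945 named 1 gene, 932 several and 9160 none. Of the single-gene probe sets of a gene, the 1 with the largest mean of log2 signals stood for it (18193 genes). Detection required 8 times the array median. Correlations used log2(signal + 32) and are given without p-values. The members, lists and rules were chosen with earlier results of these data known. Values by cell are given for genes found in every cell, the VDACs, ADP/ATP, phosphate and aspartate/glutamate carriers, TOM receptors and pore, Timm23, and the 10 genes found in 4 to 10 cells with the widest gap between detected and undetected signals; genes found in 1 to 3 cells are given where detected. Alternatives were thresholds of 4 and 16 times the median and a fixed signal of 1000, quantile normalisation, other probe set rules, pseudocount 1, rank correlation, and leaving out cells 3 and 6, 5 and 13, or cell 1 (the last chosen after seeing the data). The code was tested on simulated data and run in Python 3.11.15 with numpy 2.4.6, pandas 2.3.3, scipy 1.17.1 and matplotlib 3.10.9.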

Additional observations from a re-analysis of the deposited data

How the results depend on the processing

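The number of genes found in at least 7 cells stayed between 25 and 35 under every alternative run, and their share stayed above that of all genes, at 35.7% against 15.3% with a fixed signal of 1000 and 50% against 30.7% at 4 times the array median. The tail moved most: genes found in no cell numbered 14, but 5 at 4 times the median, 25 with a fixed signal of 1000 and 8 after quantile normalisation. The median of 5.5 cells per gene became 3.0 at 16 times the median, 2.0 with a fixed signal of 1000 and 3.0 with the mean over the probe sets of a gene. Genes found in every cell rose from 6 to 10 when cells 5 and 13 were left out and stayed between 4 and 7 otherwise. The median correlation of 0.0778 became 0.0154 by rank correlation and turned to −0.0111 without cells 5 and 13; the cause was not tested. The mean share per cell stayed between 32% and 47.7%. Counts for single genes moved as well. With a fixed signal of 1000, Tomm40 fell from 10 cells to 6, Slc25a17 from 10 to 5, Timm9 from 9 to 4 and Tomm7 from 8 to 3. Timm10 and Timm10b stayed at 8 cells there, which their lowest detected values of 4378 and 1638 had already fixed. Timm10b was in 9 cells at 4 times the median and after quantile normalisation. With 1 group of cells and no animal named, no difference could be tested, and no paired analysis was possible because there is no second group. A gene under threshold may still be expressed, since the RNA of 1 cell was amplified and its yield is unknown.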
